A study of Mus musculus with 18 samples.

Results

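Genes that mark or set the epithelial and mesenchymal states were followed through polysome gradients of wild type (WT) and Dgcr8 knockout (KO) mouse embryonic stem cells (ESCs). The set holds 10 of the 51467 genes counted: Cdh1, Epcam, Cldn6, Cdh2, Vim, Zeb1, Zeb2, Snai1, Rhoc and Tgfbr2. They were chosen by name, with earlier results of these data known, as the entries whose Ensembl identifier carries one of these symbols. Of the 10, 9 passed the filter on low counts (a level of 3 CPM, reads scaled to a common library size, in at least 3 libraries) and Zeb2 did not.

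WT cells were the V6.5 line and KO cells were 1 previously made Dgcr8 knockout line, so genotype and cell line cannot be told apart. Both grew in Knockout DMEM that held LIF, fetal bovine serum at 15%, and the 2i inhibitors CHIR99021 and PD0325901, and both received 100 ug/ml cycloheximide for 2 minutes, which stalls ribosomes on the mRNA. Lysates ran through a sucrose gradient of 10 to 50%, from which monosomes, low polysomes (2 to 4 ribosomes) and high polysomes (4 or more ribosomes) were taken and their RNA 3′ ends sequenced. With 3 gradients per genotype this gave 18 libraries in 6 groups of 3. Whether the 3 gradients came from separate cultures is not stated, so p-values measure only the spread between these libraries.

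Epithelial cells are joined by adherens and tight junctions, of which E-cadherin is the best known component, whereas mesenchymal cells carry N-cadherin and the intermediate filament vimentin. Transcription factors of the Snail and Zeb families repress Cdh1, and microRNAs (miRNAs) of the miR-200 family repress Zeb1 and Zeb2. DGCR8 is needed to cut primary miRNA transcripts, so the KO cells lack the canonical miRNAs, among them the ESC-specific cell cycle-regulating (ESCC) family that shares a seed with miR-302. Mouse ESCs are an epithelial cell type with abundant Cdh1.

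The miRNA seeds come first because matches to them were sought in the 3′ UTRs of the members. A seed is bases 2 to 8 of the mature miRNA and is in capitals in the sequences of this paragraph, which are RefSeq entries on GRCm38.p6. The first 5 carry the ESCC seed, the next 3 the seed of miR-200b, miR-200c and miR-429, and the last 2 the seed of miR-200a and miR-141.
miR-291a-3p: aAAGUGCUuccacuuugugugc
miR-294-3p: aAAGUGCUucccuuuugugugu
miR-295-3p: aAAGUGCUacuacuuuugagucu
miR-302b-3p: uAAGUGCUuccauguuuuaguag
miR-302d-3p: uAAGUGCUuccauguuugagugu
miR-200b-3p: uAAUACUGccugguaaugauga
miR-200c-3p: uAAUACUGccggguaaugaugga
miR-429-3p: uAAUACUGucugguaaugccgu
miR-200a-3p: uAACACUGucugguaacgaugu
miR-141-3p: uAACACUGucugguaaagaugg

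Matches to the ESCC seed (AGCACTT or GCACTTA, on the transcript strand only) were found in the 3′ UTRs of 4 members, Vim, Rhoc, Tgfbr2 and Zeb1. Rhoc and Tgfbr2 are in the set as reported targets of miRNAs with this seed, so their matches are not an independent result. Vim held the only 8-base match, which spans both motifs. Its 3′ UTR is 312 bases long. Similar length means here a ratio of the shorter to the longer of at least 0.8. Of the 1015 3′ UTRs of similar length among tested genes, 4.53% held at least 1 match to either motif. This share and those that follow are not limited to 8-base matches. For Rhoc, with 416 bases, the share was 6.58%, for Tgfbr2, with 1449 bases, 21.1%, and for Zeb1, with 2401 bases, 33.1%. Vim was called higher in KO cells in every fraction, Tgfbr2 in both polysome fractions, Zeb1 in high polysomes alone and Rhoc in none. Epcam, Cdh2 and Snai1, which had no match to this seed, were also called higher in every fraction. Whether the matches bear on the calls was not tested. The matches of Vim, Rhoc and Tgfbr2 are shown in capitals with 8 bases on either side, on GRCm38 and in the direction of the transcript.
Vim, chr2:13582651-13582658, plus strand: agaagctcAGCACTTAacaactga
Rhoc, chr3:104794331-104794337, plus strand: tacacaccAGCACTTtatatatt
Tgfbr2, chr9:116089881-116089887, minus strand: atagcgttAGCACTTgacaatca

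Matches to the miR-200b, miR-200c and miR-429 seed (CAGTATT or AGTATTA) were concentrated in the Zeb genes. Zeb2 held 7 of them, 4 being 8-base matches, in a 3′ UTR of 4941 bases, and none of the 644 3′ UTRs of similar length among tested genes held as many. Zeb1 held 5, of which 3 were 8-base matches, a number reached by 0.124% of 1614 3′ UTRs of similar length. Snai1 held 1, shown here because its change in translation level was called, and 11.1% of 1518 3′ UTRs of similar length held at least 1. Tested members, Zeb1 among them, can count in their own shares, whereas Zeb2 was not tested.
Snai1, chr2:167542279-167542285, plus strand: ctacccctCAGTATTcatgaggt

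Matches to the miR-200a and miR-141 seed (CAGTGTT or AGTGTTA) numbered 4 in Zeb2, 4 in Zeb1 and 1 in Cldn6. Cdh1, Epcam and Cdh2 had no match to any of the 3 seeds in these transcripts. A match is a description of the sequence, and binding was not measured.

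Before the members were compared, the labels and libraries were checked. Dgcr8, the targeted gene, kept 38 to 183 reads in each KO library, against 67 to 251 in each WT library. Its log2 change was -0.56, -0.46 and -1.01 in the monosome, low polysome and high polysome fractions, and only the last was called. Reads of 3′ ends do not show the rest of a transcript, so these counts cannot tell whether the gene is disrupted. The 10 ESC markers examined, among them Pou5f1 and Sox2, were all tested and summed to 3480 to 6040 CPM over the 18 libraries. In high polysomes they summed to 5520 to 6040 CPM in WT but 3730 to 4390 CPM in KO cells, and Pou5f1 (-1.42) and Dppa5a (-1.65) were called lower there, whereas none of the 10 was called in the other fractions. The lists for other cell types summed to less (27.4 to 345 CPM for 10 fibroblast markers, 6.27 to 55.9 CPM for 10 primitive endoderm markers, 7.44 to 25.5 CPM for 8 mesoderm markers), and Col6a1, Postn and Dcn as well as Gata6, Sox7 and Cubn had at most 3 reads in any library. The KO low polysome library of replicate 1 stood apart: 14 genes had at least 5 CPM there and at least 8 times the level of the other KO low polysome libraries (0.5 CPM added), against 0 to 1 genes in each of the other 17 libraries. Among them were the embryonic globin gene Hbb-y (425 CPM against 7.09 to 8.33), the collagen gene Col3a1 (8.61 CPM against 0 in both others) and the imprinted noncoding RNA gene H19 (154 CPM against 4.17 to 6.31, although libraries of the other groups reached 288 CPM). Without that library the low polysome log2 changes of Epcam, Cldn6, Cdh2 and Snai1 were 1.51, -1.79, 2.58 and 2.83, and all 4 were still called. The values of the other tested members without it stand beside their results, as do the counts of the epithelial, mesenchymal, TGF-beta and neural lists. The counts of the other marker lists without it, and the values of single listed genes, are not given.

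Cdh1 encodes E-cadherin (ENSMUSG00000000303, chromosome 8, 106603351 to 106670246, plus strand, mm10), the adherens junction protein that holds epithelial cells together. It was higher in KO cells in every fraction, and the difference grew towards the heavier fractions. In WT monosomes its level was 1650, 1820 and 1630 CPM, and in KO monosomes 2530, 2480 and 2200 CPM. In low polysomes the values were 3150, 2700 and 2000 CPM in WT and 5210, 4200 and 4410 CPM in KO cells. In high polysomes they were 4260, 3560 and 3770 CPM in WT and 14400, 11700 and 16100 CPM in KO cells. The groups did not overlap in any fraction. In limma, monosomes gave a log2 change of 0.50 (SE 0.13, adjusted p = 0.00243), low polysomes one of 0.83 (SE 0.12, adjusted p = 2.5e-07) and high polysomes one of 1.86 (SE 0.12, adjusted p = 2.42e-16). Calls required both an adjusted p under 0.05 and a log2 change beyond 1 in either direction, so the first 2 passed on p alone and only the high polysome change, 3.62-fold, was called. Without the library that stood apart the low polysome change was 0.74. In each of the 3 KO high polysome libraries Cdh1 had the highest 3′ end count of all genes (43568, 37583 and 70052 reads, or 1.30, 1.05 and 1.41% of the library), whereas it ranked 5 to 7 in the WT high polysome libraries.

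Epcam encodes an epithelial cell adhesion protein of the cell surface (ENSMUSG00000045394, chromosome 17, 87635979 to 87651129, plus strand). Its level in monosomes was 54.2, 53.6 and 52.2 CPM in WT and 121, 92.8 and 123 CPM in KO cells, and in high polysomes 190, 202 and 198 CPM in WT and 475, 518 and 447 CPM in KO cells. The KO libraries were above the WT libraries in all 3 fractions. Epcam was called higher in each of them, with log2 changes of 1.05 (SE 0.17, adjusted p = 6.64e-06), 1.49 (SE 0.13, adjusted p = 1.38e-12) and 1.28 (SE 0.13, adjusted p = 2.1e-11) from the lightest fraction to the heaviest. The monosome change is close to the fold threshold and fell to 0.995 and 0.969 without KO replicates 1 and 3.

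Cldn6 encodes claudin 6, a tight junction protein of early embryonic epithelia (ENSMUSG00000023906, chromosome 17, 23679249 to 23682446, plus strand). It was the only member called lower in KO against WT cells in any fraction, whereas Cdh1 and Epcam were higher. In low polysomes it had 57, 38 and 26 reads in WT and 10, 8 and 15 in KO libraries, which is 20.1, 10.6 and 7.83 CPM against 3.07, 2.56 and 3.94 CPM. In high polysomes it had 15.6, 14.8 and 19.1 CPM in WT and 4.63, 4.04 and 3.91 CPM in KO cells. Neither pair of groups overlapped, and the log2 changes were -1.81 (SE 0.43, adjusted p = 5.51e-04) and -1.96 (SE 0.38, adjusted p = 2.78e-05). In monosomes its counts were 12, 8 and 1 in WT and 5, 0 and 8 in KO libraries, which overlap, and the log2 change of -1.87 had an SE of 0.83 (adjusted p = 0.0728).

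**Figure D1:**
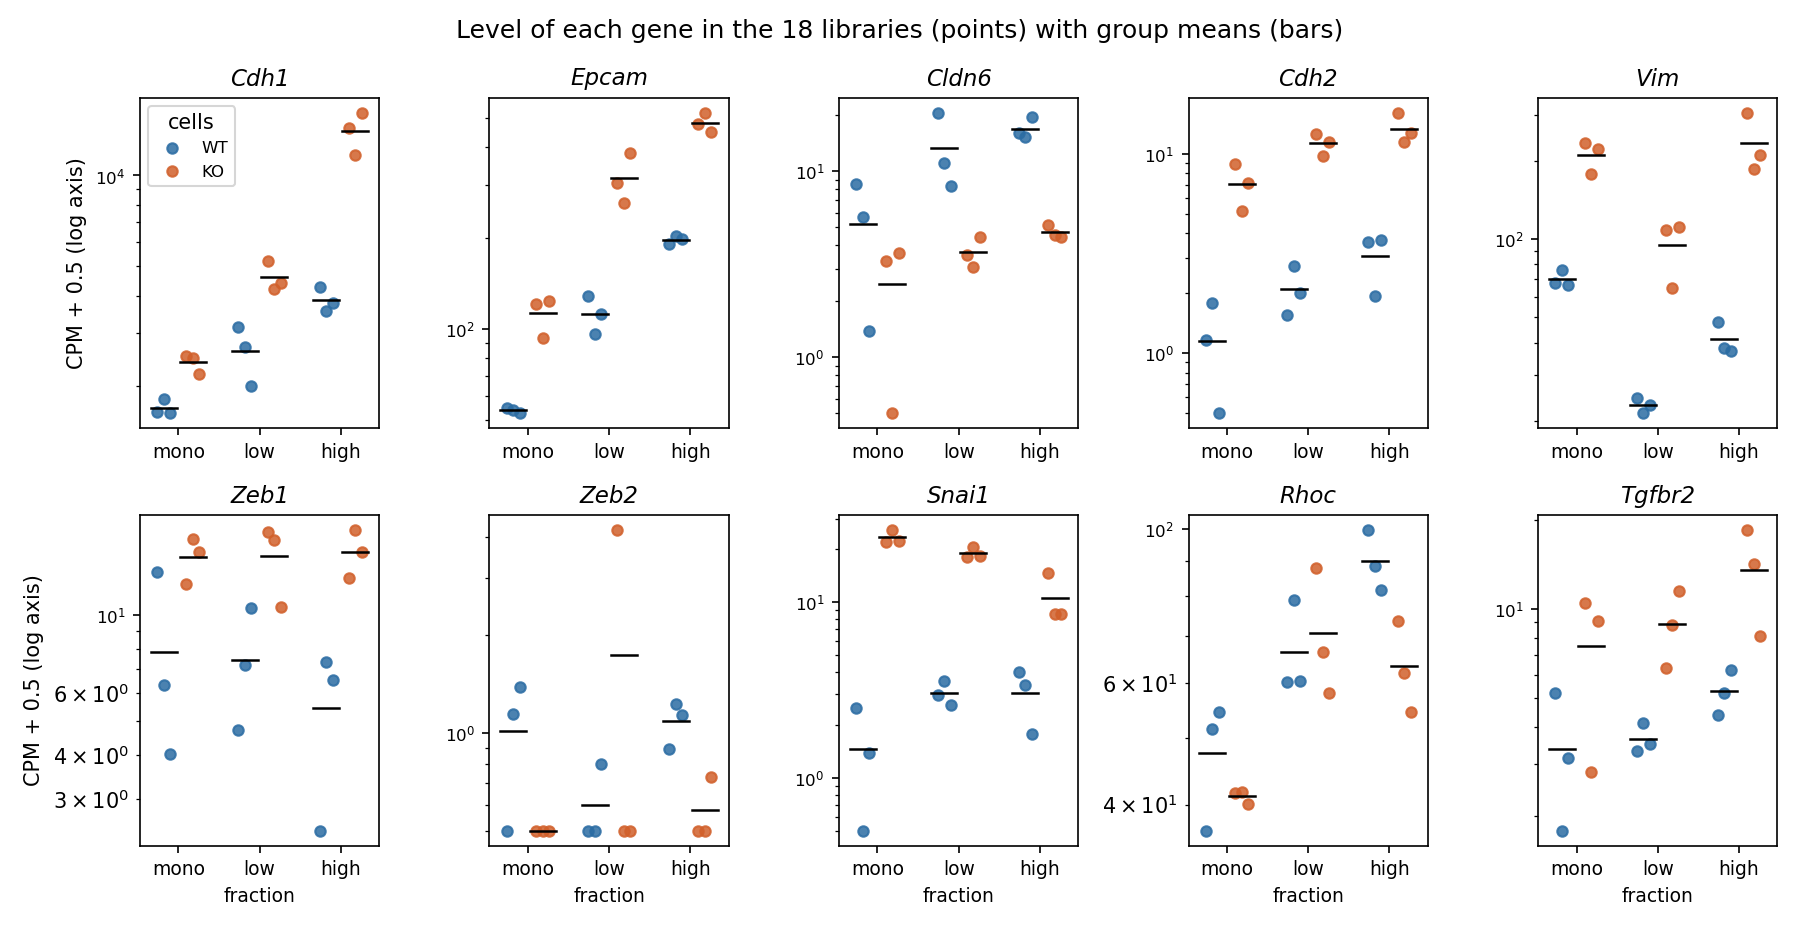
Level of the 10 genes in the 18 libraries, one panel per gene, with the fraction on the x axis and CPM plus 0.5 on a log y axis; each point is a library (WT blue, KO orange) and each bar a group mean. The 3 KO high polysome libraries of Cdh1 sit between 11700 and 16100 CPM, whereas Zeb2 is near 0 in all but 1 library, the KO low polysome library of replicate 1 at 3.69 CPM.

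Cdh2 encodes N-cadherin, the cadherin of mesenchymal and neural cells (ENSMUSG00000024304, chromosome 18, 16588877 to 16809246, minus strand). It was close to the detection limit in WT cells and rose in KO cells in every fraction. Its reads numbered 1, 2 and 0 in WT monosomes, 3, 8 and 5 in WT low polysomes and 8, 4 and 10 in WT high polysomes. In KO cells they numbered 15, 12 and 17, then 39, 29 and 42, then 47, 35 and 53. The groups did not overlap in any fraction, and Cdh2 reached the filter in 9 KO but only 2 WT libraries, so it was tested because of its level in KO cells. The log2 changes were 2.83 (SE 0.70, adjusted p = 0.00127), 2.66 (SE 0.43, adjusted p = 1.76e-06) and 2.28 (SE 0.38, adjusted p = 2.58e-06) from monosomes to high polysomes. For monosomes, where WT libraries held 3 reads in all, the ratio of summed reads scaled by library size was 8.84 with a 95% counting interval of 2.83 to 44.5, which covers counting error only. The 8 neural markers examined, among them Sox1 and Pax6, summed to 87.5 to 100 CPM in WT and 28.9 to 39.2 CPM in KO monosomes, where 3 of the 4 tested were called lower. In low polysomes they summed to 60.8 to 79.3 and 32.1 to 67.0 CPM, with Sox1 called lower (-1.49) and Sox3 higher (1.5), and without the library that stood apart 3 were lower and 0 higher. In high polysomes, at 105 to 143 and 48.8 to 58.9 CPM, Sox1 was the only one called (-2.21).

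Vim encodes vimentin, the intermediate filament of mesenchymal cells, which cultured ESCs also express (ENSMUSG00000026728, chromosome 2, 13573927 to 13582826, plus strand). Its level in monosomes was 67.6, 75.5 and 66.3 CPM in WT and 233, 177 and 222 CPM in KO cells. In low polysomes it was 24.0, 20.9 and 22.6 CPM in WT and 108, 64.1 and 111 CPM in KO cells, and in high polysomes 47.6, 37.8 and 36.6 CPM in WT and 305, 185 and 211 CPM in KO cells. No KO library overlapped a WT library of the same fraction. The increase was called in each fraction, with log2 changes of 1.57 (SE 0.19, adjusted p = 1.14e-08), 2.03 (SE 0.21, adjusted p = 5.15e-11) and 2.5 (SE 0.18, adjusted p = 4.34e-15). In the low polysomes the change was 1.92 without the library that stood apart.

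Snai1 encodes Snail, a zinc finger repressor of Cdh1 (ENSMUSG00000042821, chromosome 2, 167538195 to 167542814, plus strand), and was the member with the highest log2 change in monosomes and low polysomes. WT libraries held 3, 0 and 1 reads in monosomes, 7, 11 and 7 in low polysomes, then 9, 8 and 4 in high polysomes. KO libraries held 39, 65 and 56, then 57, 63 and 68, then 43, 26 and 35. The groups were apart in each fraction, but the distance narrowed towards the heavier ones. The log2 changes were 4.56 (SE 0.68, adjusted p = 9.23e-07), 2.79 (SE 0.37, adjusted p = 3.71e-08) and 1.97 (SE 0.41, adjusted p = 8.5e-05), and the ratio of summed reads in monosomes, 160 against 4, was 24.1 with a counting interval of 9.23 to 89.5. Snai1 reached the filter in 9 KO and 3 WT libraries.

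Zeb1 encodes a zinc finger homeobox repressor of epithelial genes (ENSMUSG00000024238, chromosome 18, 5591860 to 5775467, plus strand). In high polysomes it had 1.95, 6.85 and 6.05 CPM in WT and 12.2, 16.8 and 14.5 CPM in KO cells, with no overlap and a called log2 change of 1.64 (SE 0.37, adjusted p = 2.0e-04), which was 1.08 with the trend on coding length removed. In monosomes the groups overlapped, with 3.54 to 12.7 CPM in WT and 11.7 to 15.9 CPM in KO cells, and the log2 change of 1.02 was not called (SE 0.43, adjusted p = 0.0579). In low polysomes the log2 change of 0.997 passed on p but not on fold (SE 0.31, adjusted p = 0.00658), and it was 0.858 without the library that stood apart.

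Zeb2, its close relative (ENSMUSG00000026872, chromosome 2, 44983632 to 45117395, minus strand), could not be tested. It had 0 to 2 reads in 17 libraries and 12 reads in the KO low polysome library of replicate 1. That library is the one that stood apart, so its 12 reads were not used for a statement on the genotype. In the other libraries 3 reads, the floor used here, correspond to 0.602 to 2.60 CPM.

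Rhoc encodes a small GTPase of the actin cytoskeleton (ENSMUSG00000002233, chromosome 3, 104788375 to 104794459, plus strand). It has an ESCC seed match and was not called higher in KO cells in any fraction. Monosomes held 47.0 ± 9.52 CPM of it in WT and 40.6 ± 0.914 CPM in KO cells, low polysomes 66.0 ± 10.8 and 70.3 ± 15.3 CPM (mean ± SD, n = 3). In high polysomes the values were 99.1, 87.9 and 81.2 CPM in WT and 73.1, 61.5 and 54.0 CPM in KO cells, so all KO libraries were below all WT libraries. The log2 changes were -0.18 (95% interval -0.59 to 0.23), 0.07 (-0.23 to 0.38) and -0.52 (-0.82 to -0.22), of which the last passed on p but not on fold (adjusted p = 0.00284). The low polysome change was -0.096 without the library that stood apart. After the trend of the change on coding length had been removed over all protein-coding genes, the high polysome change of Rhoc, a gene of 193 codons, was 0.20 (adjusted p = 0.257).

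Tgfbr2 encodes the type II receptor for TGF-beta (ENSMUSG00000032440, chromosome 9, 116084293 to 116175360, minus strand). In low polysomes it had 2.82, 3.63 and 3.01 CPM in WT and 5.84, 8.33 and 11 CPM in KO cells, and in high polysomes 3.90, 4.69 and 5.73 CPM in WT and 17.9, 13.7 and 7.58 CPM in KO cells. Both pairs of groups were apart and both changes were called, at a log2 change of 1.34 (SE 0.44, adjusted p = 0.0101) and 1.26 (SE 0.38, adjusted p = 0.00468). In monosomes, with 2 to 7 reads in WT and 6 to 22 in KO libraries, the groups overlapped and the log2 change was 0.996 (SE 0.64, adjusted p = 0.231). The low polysome change was 1.57 without the library that stood apart.

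Over the 9 members tested, 4 were called higher and 0 lower in monosomes, where 18.1% of all 12851 genes tested were called in either direction, 8.43% being higher and 9.63% lower. Beside that 0, 7 members had an unadjusted p under 0.05 in limma, and edgeR and DESeq2 also called 4 higher and 0 lower. Low polysomes had 5 members higher and 1 lower, against 25% of all genes (11.4% higher and 13.6% lower). The corresponding numbers for high polysomes were 7 and 1, against 33.1% (15.1% higher and 17.9% lower). With total counts instead of TMM (scaling on the bulk of the genes), the share of higher genes among the calls fell from 45.8 to 31.4% in high polysomes, and the members called there were still 7 higher and 1 lower. Leaving out the library that stood apart, which was decided after the data had been seen, left the low polysome counts at 5 and 1. In monosomes all KO libraries lay above all WT libraries for 5 members and below them for 0, where 49.2% of all genes tested did not overlap (23.5% above and 25.7% below). In low polysomes 7 members lay above and 1 below, against 57.0% of all genes (28.6% above and 28.4% below), and in high polysomes 7 above and 2 below, against 63.6% (29.9% above and 33.7% below). The median log2 change of the 9 was 1.02, 1.34 and 1.64 in the 3 fractions, against -0.05, 0.00 and -0.08 over all genes tested. Cdh2 entered these counts through its level in KO cells alone. Over the 8 members that reached the filter in at least 3 libraries of each genotype, 3 were called higher and 0 lower in monosomes, 4 and 1 in low polysomes and 6 and 1 in high polysomes, with medians of 1.01, 1.17 and 1.46. RNA came from whole cultures, in which fewer cells of a type and less RNA per cell cannot be told apart.

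**Figure D2:**
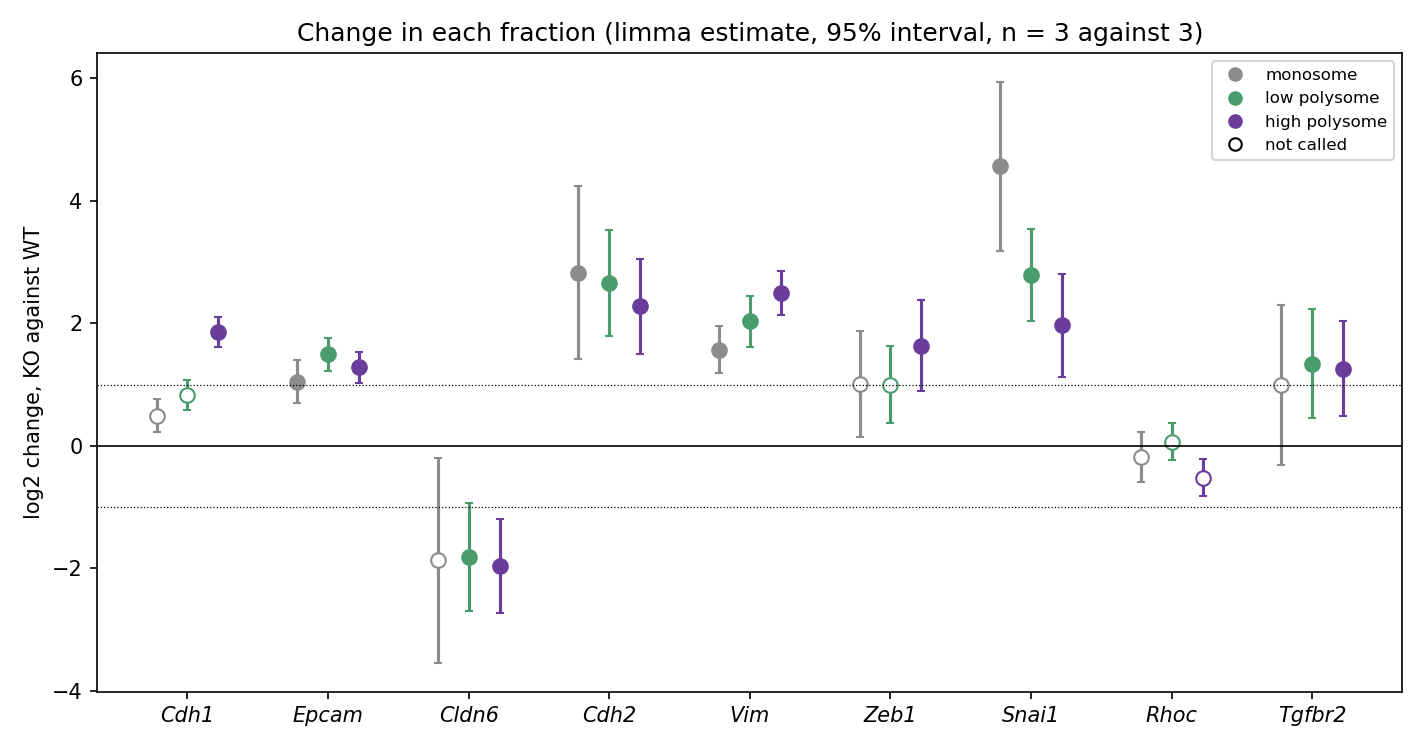
Log2 change of KO against WT (y axis) for the 9 tested genes (x axis) in monosomes (grey), low polysomes (green) and high polysomes (purple); points are limma estimates, bars 95% intervals, open points were not called, and dotted lines mark a log2 change of 1 in either direction. Cdh1 and Vim rise from the monosome to the high polysome estimate (0.50 to 1.86 and 1.57 to 2.5), Snai1 falls from 4.56 to 1.97, and Cldn6 is below 0 in all fractions.

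The balance of the 2 states was also read inside each library, as the log2 ratio of counts plus 0.5, which does not depend on scaling between libraries. The log2 ratio of Cdh1 to Vim was 4.60 ± 0.013 in WT and 3.52 ± 0.258 in KO monosomes, 6.83 ± 0.319 and 5.64 ± 0.365 in low polysomes, and 6.57 ± 0.103 and 5.93 ± 0.348 in high polysomes (mean ± SD, n = 3). The differences of KO from WT were -1.08, -1.19 and -0.638, and each gave an exact permutation p of 0.1, the smallest that 3 against 3 can give. The log2 ratio of Cdh1 to Cdh2 differed by -2.38 in monosomes and -1.85 in low polysomes (exact permutation p = 0.1 for both) but by -0.44 in high polysomes (exact permutation p = 0.3). With a pseudocount of 5 these 3 differences were -0.496, -1.13 and 0.13, so their size rested on the pseudocount and the last changed sign. No difference of these ratios can pass 0.05 with 3 libraries a group.

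**Figure D3:**
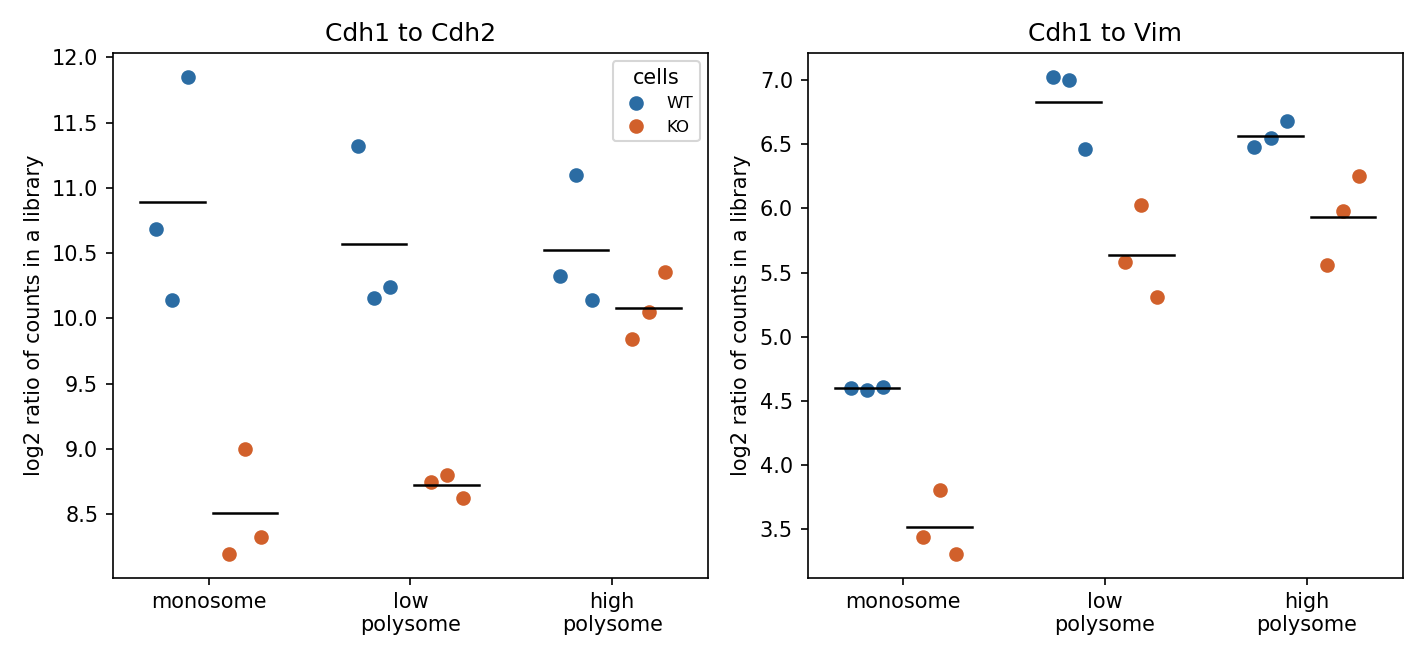
Log2 ratio of Cdh1 to Cdh2 counts (left) and of Cdh1 to Vim counts (right) within each library (y axis) by fraction (x axis); points are libraries (WT blue, KO orange) and bars group means. KO libraries lie below WT libraries for Cdh1 to Vim in every fraction, with differences of the means of -1.08, -1.19 and -0.638, and for Cdh1 to Cdh2 the difference shrinks to -0.44 in high polysomes.

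Translation level is the ratio of high polysome to monosome reads of a gene. In WT cells it was called high for Cdh1 (log2 ratio 1.18), Epcam (1.87) and Cldn6 (1.97), the 3 epithelial members, which is 3 of 9 called higher and 0 lower where 30.1% of all genes were called (10.7% higher and 19.3% lower). Beside that 0, 6 members had an unadjusted p under 0.05 in limma, and edgeR called 4 and DESeq2 3 higher and 0 lower. None of the others was called, although Cdh2 (1.54) and Snai1 (1.32) had WT log2 ratios above that of Cdh1. Rhoc was at 0.94, Tgfbr2 at 0.77, Zeb1 at -0.60 and Vim at -0.80. Without WT replicate 3 the WT ratio of Cldn6 was 1.18 (adjusted p = 0.0583). In KO cells 4 members were called higher, Cdh1 (2.54), Epcam (2.11), Cldn6 (1.88) and Tgfbr2 (1.04), and 1 lower, Snai1 (-1.27), where 43.0% of all genes were called (17.5% higher and 25.5% lower). With each gradient as a block, Cldn6 (adjusted p = 0.0862) and Tgfbr2 (log2 ratio 0.874) were no longer called in KO cells. Leaving out 1 gradient moved the KO ratio of Cldn6 between 0.459 and 2.75 and that of Tgfbr2 between 0.256 and 1.79, and without KO replicate 2, which gave the lowest value of both, neither was called. The KO ratio of Cdh1, 5.81-fold, was above that of 99.5% of the genes tested.

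The change in translation level between the genotypes was called for 1 member higher, Cdh1, and 1 lower, Snai1, where 15.1% of all genes were called (6.29% higher and 8.81% lower). Scaling by total counts kept both calls, although it cut the share of higher genes among all calls from 41.6 to 12%. In the 3 WT gradients the log2 ratio of Cdh1 was 1.37, 0.967 and 1.21, and in the 3 KO gradients 2.51, 2.23 and 2.87. The 2 sets did not overlap, and the change was 1.36 on the log2 scale (SE 0.18, 95% interval 1 to 1.72, adjusted p = 1.9e-07). Most of it lay between low and high polysomes, where the change of the high to low ratio was 1.02 (SE 0.17, adjusted p = 5.03e-05), against 0.34 between monosomes and low polysomes (SE 0.18, adjusted p = 0.245). The sizes of these 2 steps were not tested against each other.

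Genes with long coding sequences moved in the same direction as Cdh1. Cdh1 has 884 codons, and the median change over the 1173 protein-coding genes with the most similar coding lengths (1 of 10 equal classes) was 0.50. With the trend on coding length removed, the Cdh1 change was 0.94 (adjusted p = 2.2e-04), which is under the fold threshold. The part that coding length has in the change was not tested further. Cdh2 and Zeb1, which fall in the same class, had changes of -0.55 (SE 0.80, adjusted p = 0.655) and 0.62 (SE 0.56, adjusted p = 0.448).

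Snai1 moved the other way. Its log2 ratio was 0.633, 2.33 and 0.314 in the WT gradients and -0.585, -1.56 and -1.37 in the KO gradients, and these did not overlap. The change was -2.59 (SE 0.80, 95% interval -4.20 to -0.98, adjusted p = 0.0122). The WT monosome libraries held 4 reads in all, and without WT replicate 2, which held 0 of them, the change was -1.60 (adjusted p = 0.195), and with the coding length trend removed it was -2.19 (adjusted p = 0.0546). The 264 codons of Snai1 put it in a class with a median of -0.34.

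For Vim the change was 0.93 (SE 0.26, 95% interval 0.40 to 1.46, adjusted p = 0.00641), just under the fold threshold. Its gradients gave -0.501, -0.983 and -0.844 in WT and 0.387, 0.061 and -0.071 in KO cells, without overlap. Its 466 codons lie in a class with a median of 0.11.

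For the other members the intervals were wide or centred near 0. The change was 0.23 for Epcam (95% interval -0.20 to 0.67), -0.34 for Rhoc (-0.85 to 0.17), 0.26 for Tgfbr2 (-1.25 to 1.78) and -0.09 for Cldn6 (-1.94 to 1.75). With 0 to 12 monosome reads per library, the Cldn6 interval allows a change of over 3-fold in either direction. Between low polysomes and monosomes 0 members were called, where 5.03% of all genes were (1.23% higher and 3.81% lower), with 2 at an unadjusted p under 0.05 and 0 in edgeR and in DESeq2. Between high and low polysomes Cdh1 was the only one called, where 5.18% of all genes were (2.29% higher and 2.89% lower), and Rhoc passed on p alone with a change of -0.59 (adjusted p = 0.0475). The Cdh1 change of 1.02 was close to the fold threshold and was not called with total counts (0.823), without WT replicate 1 (0.946), WT replicate 2 (0.976) or KO replicate 3 (0.887), or with the coding length trend removed (0.766).

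**Figure D4:**
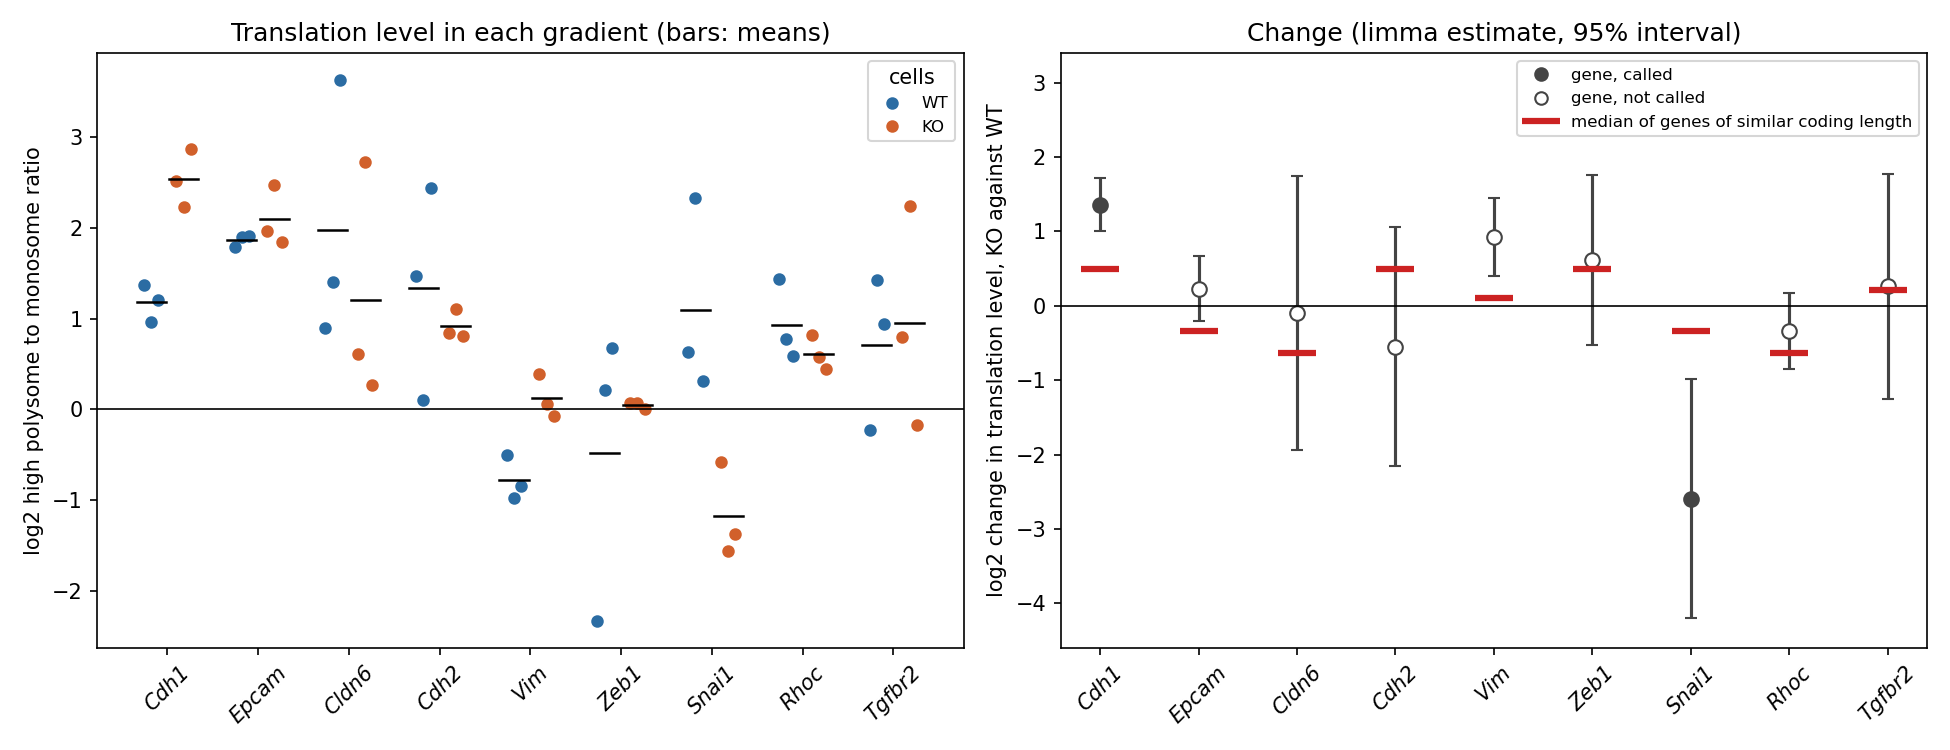
Left, log2 ratio of high polysome to monosome level in each gradient (y axis; points, WT blue and KO orange; bars, means) for the 9 tested genes (x axis). Right, the change of that ratio between KO and WT (limma estimate with 95% interval, filled where called) with the median change of genes of similar coding length in red; Cdh1 at 1.36 lies above its median of 0.50 and Snai1 at -2.59 below its median of -0.34.

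Other genes of the epithelial and mesenchymal programmes were read from lists of 35 epithelial and junction genes, 27 mesenchymal genes and 18 TGF-beta pathway genes. Their counts stand against the shares of all genes called, which were 8.43% higher and 9.63% lower in monosomes, 11.4 and 13.6% in low polysomes and 15.1 and 17.9% in high polysomes. Of the 29 epithelial and junction genes tested, 2 were called higher and 5 lower in monosomes. The polysome fractions had 5 and 3 (low) and 10 and 2 (high). The list median was 0.04, 0.06 and 0.41 on the log2 scale. Without the library that stood apart the low polysomes had 4 and 3 (median 0.13). Scaled by total counts, the 29 genes gave 2 and 5 in monosomes, 4 and 3 in low polysomes and 6 and 4 in high polysomes. Under that scaling the 12851 genes tested gave 1274 higher and 1061 lower calls in monosomes and 1404 and 1813 in low polysomes. In high polysomes they gave 1426 and 3114. These all-gene counts, not the shares above, stand against list counts scaled by total counts. The number of higher calls in high polysomes fell with that scaling both on the list and over all genes. Over the 26 genes that reached the filter in at least 3 libraries of each genotype, the counts were 2 and 4, 4 and 2, and 8 and 1, and the monosome median was -0.004. Among genes called in at least 2 fractions, high changes were those of Cldn3, a claudin of tight junctions (1.68, 1.81 and 1.42 in monosomes, low and high polysomes) and Dsg2, a desmosomal cadherin (0.71, 1.02 and 1.70). The lowest were those of Grhl3, a transcription factor of surface epithelia (-1.90, -1.60 and -1.86), the tight junction scaffold Tjp3 (-1.43, -2.15 and -1.50) and the desmosomal plakophilin Pkp2 (-1.96, -1.76 and -0.38). Calls on the list went in both directions in every fraction.

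Several epithelial genes were followed irrespective of their change. Krt8, a simple epithelial keratin, was called higher in high polysomes alone (0.10, -0.16 and 1.22), and its partner Krt18 lower in monosomes alone (-2.04, -0.03 and -0.91). In low polysomes Krt18 had 3.61 to 5.29 CPM in WT and 2.24 to 9.53 CPM in KO libraries. Krt8 had 2.23 to 2.71 CPM in WT and 0.788 to 7.38 CPM in KO libraries there. Their low polysome changes without the library that stood apart are not given here, so the lack of a call in that fraction is uncertain. Tjp1 (-0.23, 0.37 and 0.59), a tight junction scaffold, and Ctnnb1 (-0.31, 0.10 and 0.65), the beta-catenin that links cadherins to the cytoskeleton, were not called in any fraction. The same held for the epithelial transcription factors Grhl2 (0.04, -0.18 and 0.46) and Ovol2 (-0.10, -0.29 and -0.14), and the splicing factor gene Esrp1 did not pass the filter.

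The mesenchymal list had 17 genes tested, of which 5 were called higher and 0 lower in monosomes. The low polysomes had 9 and 0 and the high polysomes 11 and 1, with medians of 0.55, 1.01 and 1.32. The all-gene shares given above apply here too, and the all-gene counts under total counts apply to the list counts scaled that way. Without the library that stood apart the low polysomes had 7 and 0 (median 0.84). Scaled by total counts, the 17 genes gave 6 and 0 in monosomes, 8 and 0 in low polysomes and 8 and 1 in high polysomes. The 16 genes that reached the filter in both genotypes gave 5 and 0, 8 and 0, and 10 and 1. High changes were those of Axl, a receptor tyrosine kinase (1.94, 2.48 and 2.90), and of Itgav, the integrin alpha V chain (2.05, 1.99 and 3.08). Fn1, the matrix protein fibronectin, was called higher in high polysomes alone (0.37, 0.22 and 1.01), and Twist1, a transcription factor of mesenchyme, was the 1 gene called lower (-0.05, -0.06 and -1.05). Snai2, the relative of Snai1, did not pass the filter. Of 10 fibroblast markers 4 were tested, and 1 was called higher and 1 lower in each fraction. The one higher was the matrix protein gene Fbln1 (1.08, 1.15 and 2.38). The collagen gene Col1a1, with at most 19 reads in any library, was called lower in monosomes (-2.78) and low polysomes (-2.22). The list summed to 56.2 to 69.1 CPM in WT and 192 to 345 CPM in KO high polysomes, of which Fbln1 made up 42.5 to 56.1 and 180 to 332 CPM. Of 8 mesoderm markers 3 were tested, and Kdr, a receptor of vascular and early mesoderm, was called higher in low and high polysomes (0.91, 1.83 and 1.51). Their sum overlapped between the genotypes in every fraction. The part of other cell types in these results was not tested.

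Around Tgfbr2, 15 TGF-beta pathway genes were tested, with 1 higher and 1 lower in monosomes, 4 and 1 in low polysomes and 5 and 1 in high polysomes, and medians of 0.27, 0.50 and 0.13. The monosome counts are no higher than the all-gene shares. Without the library that stood apart the low polysome counts were also 4 and 1 (median 0.41), and the 13 genes that reached the filter in both genotypes gave 0 and 1, 3 and 1, and 3 and 1. Scaled by total counts, the 15 genes gave 2 and 1 in monosomes, 3 and 1 in low polysomes and 3 and 2 in high polysomes. Among genes called in at least 2 fractions, the ligand gene Tgfb2 (1.79, 2.15 and 1.46) and the co-receptor gene Tgfbr3 (0.97, 1.86 and 1.76) had the highest mean over the fractions, and Tgfbr1 (0.54, 1.33 and 1.19), the type I receptor that signals with Tgfbr2, was called in both polysome fractions. Ltbp1, which stores latent TGF-beta in the matrix, was lower (-2, -2.44 and -0.90).

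**Figure D5:**
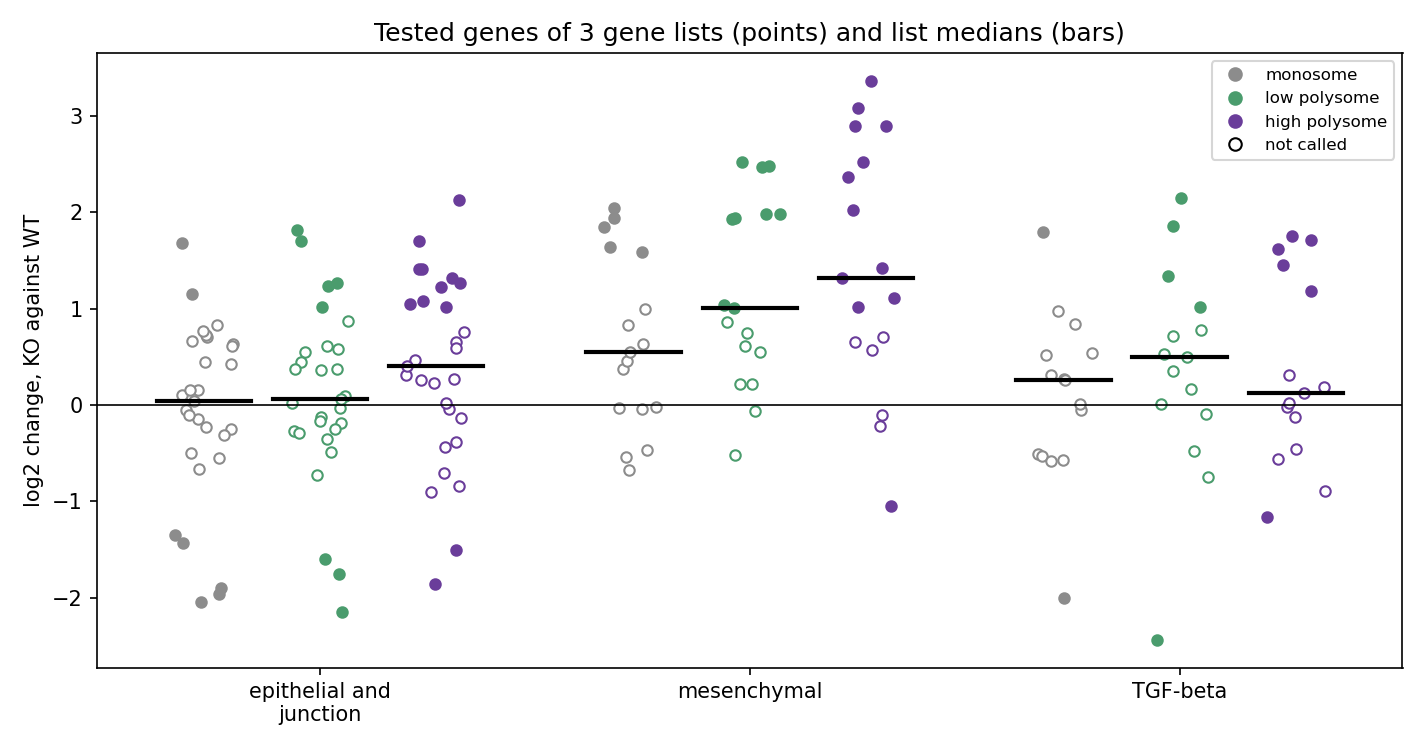
Log2 change of KO against WT (y axis) of every tested gene of the 3 gene lists (x axis) in monosomes (grey), low polysomes (green) and high polysomes (purple); filled points were called, open points were not, and bars are list medians. The mesenchymal medians lie at 0.55, 1.01 and 1.32, and the epithelial and junction genes spread on both sides of 0 with medians of 0.04, 0.06 and 0.41.

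The genes whose levels ran most like Cdh1 over the 18 libraries were Sel1l (Pearson r = 0.986), Ptprk (0.983) and Slc39a6 (0.980), on the scale of log2 CPM. For Vim they were Tbc1d25 (0.951), Cog1 (0.951) and Sh3gl2 (0.946). These correlations describe libraries that share 6 gradients, 2 genotypes and 3 fractions, and carry no test.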

How the data were processed

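The authors deposited raw counts of QuantSeq 3′ end reads per gene, without normalisation. Per the labels and methods, reads were trimmed with cutadapt 1.14, aligned to mm10 with STAR 2.5.3a keeping uniquely mapped reads, and counted by strand with featureCounts 1.5.3 on GENCODE M14. No removal of PCR copies was stated, so intervals on reads cover counting error only. Unique mapping can lower counts where a gene has a near-identical copy.

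Totals were 1151649 to 4984833 counts per library, without 92 spike-in entries. Symbols, transcripts and 3′ UTRs came from GENCODE M21, also on GRCm38 (51274 genes matched). The 12851 genes that reached 3 CPM in 3 or more of 18 libraries were fitted with limma-voom (limma 3.58.1, R 4.3.3) and TMM factors from edgeR 4.0.16, with 1 mean per group. Levels are TMM-scaled CPM. All tests were two-sided, adjusted p-values are Benjamini-Hochberg over all genes tested, and a call needs one under 0.05 together with a log2 change beyond 1 in either direction. The fit was tested on simulated data. Ratios inside a library used an exact permutation test. Alternatives included edgeR's quasi-likelihood test and DESeq2 1.42.0.

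The fractions of a gradient carry the same number and come from 1 lysate. Deviations from group means of same-numbered libraries of a genotype correlated at 0.032 to 0.135 (18 pairs), and those of different genotypes at 0 to 0.102, so gradients were used as a block only within genotypes. A block by replicate number, which spans both genotypes, was run as an alternative.

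All members and Dgcr8 are named. The other genes named are 13 fixed ones and, per list, up to 3 higher and 3 lower with the largest mean log2 change among those called in at least 2 fractions, besides the 3 most alike to Cdh1 and Vim. Some genes that these rules name, and 1 list, are not reported here. Members and lists were chosen with earlier results of these data known. Hbb-y, Col3a1, Col1a1, H19, Fbln1, Pou5f1, Dppa5a, Sox1, Sox3, Kdr and the fibroblast and endoderm genes at the floor were picked after their values were seen.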

Additional observations from a re-analysis of the deposited data

Results flagged for a closer look

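The change between fractions differed between the genotypes, by the interaction term in limma, for Cdh1 and Snai1. For Cdh1 the change was 1.36 on the log2 scale in translation level (high polysomes against monosomes, higher in 3 of 3 KO gradients than in any WT gradient) and 1.02 in the high to low polysome ratio, the latter not called with total counts or without WT replicate 1, WT replicate 2 or KO replicate 3. For Snai1 the change in translation level was -2.59, lower in 3 of 3 KO gradients than in any WT gradient. The WT monosome libraries held 4 Snai1 reads in all, and the Snai1 change was not called without WT replicate 2 (-1.60). With the trend on coding length removed, 0 members were called for either change. Groups of 3 libraries were not examined for single outlying values.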

How the results depend on the processing

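Of 916 values of single members under the alternatives, 834 kept their direction and side of the threshold, 22 kept the direction but lost the call, 38 gained it and 22 changed sign, each of the last being a change that was not called. The 916 leave out the low to monosome and high to low ratios of every member but Cdh1. The counts of members called in KO against WT stayed within 1.5 times of those reported under every alternative run. With the trend on coding length removed, 0 members were called for translation level and 0 for the high to low ratio (edgeR and DESeq2 on the untrended data called 2 and 1), the high polysome change of Rhoc was 0.202, and the translation level changes of Cldn6 and Rhoc were 0.463 and 0.313. Scaled by total counts, 0 members were called for the high to low ratio, Epcam and Tgfbr2 changed by -0.095 and -0.076 in translation level, and the KO translation levels of Vim and Zeb1 were -0.122 and -0.232. Without a fold threshold, 2 members were called for the high to low ratio and 5 for the WT translation level, and 5 also without a filter on low counts. In KO cells, edgeR called 3 members for translation level, and Zeb1 was at -0.096 with a minimum of 10 CPM and at -0.012 with only the libraries compared. With a pseudocount of 5 the Cdh1 to Cdh2 difference was -0.496, -1.13 and 0.128 from monosomes to high polysomes. The counts over genes that reached the filter in each genotype were chosen after seeing the data. The cause of these shifts was not tested.

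With each gradient as a replicate block, 3 members were called for the KO translation level, Cldn6 and Tgfbr2 being lost. With the replicate number as a block, 5 members instead of 4 were called in monosomes, Zeb1 being the one added (adjusted p = 0.0312), Cdh2 was added in the WT translation level (adjusted p = 0.0423), and Tgfbr2 was lost in the KO translation level (log2 ratio 0.897). Blocks changed no other call of a member.

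Leaving out 1 gradient at a time gave 1 to 3 members called for translation level (1 without WT replicate 2), 0 to 1 for the high to low ratio (0 without WT replicate 1, WT replicate 2 or KO replicate 3), 3 to 5 for the WT and 3 to 6 for the KO translation level. The Rhoc change in low polysomes ranged from -0.096 to 0.215, the lowest being without the library that stood apart. Translation level changes ranged from -1.58 to 0.785 for Cldn6, -1.36 to 0.148 for Cdh2, -0.356 to 1.18 for Zeb1 and -0.584 to 1.02 for Tgfbr2. The WT translation level of Zeb1 ranged from -1.17 to 0.366, and the KO translation level of Vim from -0.004 to 0.227.

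Over all genes tested, total counts moved the median log2 change by 0.105 in monosomes, -0.224 in high polysomes, -0.328 in translation level, -0.249 in KO translation level, and -0.13 and -0.199 in the low to monosome and high to low ratios. The share of calls that were higher went from 46.7 to 54.6%, 45.8 to 31.4%, 41.6 to 12%, 40.6 to 28.3%, 24.4 to 10.4% and 44.1 to 12.6% in the same order. Without a fold threshold the calls were 4797, 6716 and 7802 in monosomes, low and high polysomes and 3621 in translation level, in place of 2320, 3216, 4249 and 1940. They were 1464 and 2288 for the low to monosome and high to low ratios, in place of 647 and 666, and 6944 and 8701 for the WT and KO translation levels, in place of 3862 and 5520. With the coding length trend removed the change in translation level had 742 calls and the 2 ratios 250 and 262. Without a filter 3679 were called in monosomes and 6958 in the WT translation level. With 8-base matches only, 1 member in place of 4 held an ESCC site, 2 in place of 3 a miR-200b site and 1 in place of 3 a miR-200a site. Monosome libraries were the shallowest, and low counts there limit Cdh2, Snai1, Cldn6, Tgfbr2 and Zeb2.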
